A study of Homo sapiens with 6 samples.

Results

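ANKRD11, GPR158 and SENP6 are 3 protein-coding genes over which the list of RNA polymerase II (Pol II) peaks from DMSO-treated LNCaP cells was dense. Each gene was taken with 20 kb on both sides on the hg19 build. ANKRD11 runs on the minus strand of chromosome 16 between 89334 and 89557 kb, so its start is at the higher coordinate. GPR158 runs on the plus strand of chromosome 10 between 25463 and 25892 kb, and SENP6 on the plus strand of chromosome 6 between 76311 and 76428 kb. These bounds are known to 1 kb, and all distances below are counted from the start in the direction of transcription. A peak belonged to a gene window when it touched it. The 3 windows, 0.889 Mb in all, held 0 of 1932 listed BMH-21 Pol I peaks, 31 of 42547 DMSO Pol I peaks, 44 of 11540 BMH-21 Pol II peaks and 304 of 28798 DMSO Pol II peaks. The genes were chosen by the density of listed DMSO Pol II peaks over them, so that density is given as a description and supports nothing else.

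The samples were chromatin immunoprecipitation sequencing (ChIP-seq) libraries of LNCaP, an established androgen-responsive prostate cancer cell line. Cells were exposed to 1 µM BMH-21, a DNA intercalator that inhibits RNA polymerase I (Pol I), for 6 h or to its solvent DMSO. An antibody against Pol I and an antibody against the form of Pol II whose C-terminal repeats are phosphorylated at serine 5 were used, which asks where each polymerase sat with and without the inhibitor. Each combination had 1 library, so differences between treatments come without replicate error and without p-values, and read depth is unknown because the files list peaks without reads. Identity of the cell line could not be checked against marker genes, since peak lists carry no expression. Strand is not resolved by ChIP-seq, and on GRCh38 a gene table has other entries that overlap each gene, among them GPR158-AS1 at GPR158.

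Pol II initiates at gene starts, where serine 5 of its tail is phosphorylated by the general transcription factor TFIIH, and in many genes it then pauses shortly downstream before elongating through the gene body. Serine 5 phosphorylation is therefore known mainly as a mark of gene starts. Pol I transcribes the ribosomal RNA precursor in the nucleolus and is not known to transcribe any of these genes. ANKRD11 encodes an ankyrin repeat chromatin regulator that binds histone deacetylases and nuclear receptor coactivators. GPR158 encodes a class C G protein-coupled receptor of the plasma membrane, reported to respond to glycine. SENP6 encodes a protease that trims chains of SUMO2 and SUMO3, small ubiquitin-like modifiers, from other proteins.

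The promoters are shown because DMSO Pol I peaks were listed at the gene starts and DMSO Pol II peaks were not. The letters are those of RefSeq on GRCh38.p14, from 250 bases before to 50 bases after the annotated start, 5′ to 3′ on the gene's own strand. All 3 genes were found in the table. Capitals mark GGGCGG, the core of the GC box, and CCAAT, each on either strand (CCGCCC and ATTGG in reverse). The promoter of ANKRD11 is at chr16:89490512-89490811 on the minus strand, that of GPR158 at chr10:25174751-25175050 on the plus strand and that of SENP6 at chr6:75601630-75601929 on the plus strand, all on GRCh38.p14.
ANKRD11: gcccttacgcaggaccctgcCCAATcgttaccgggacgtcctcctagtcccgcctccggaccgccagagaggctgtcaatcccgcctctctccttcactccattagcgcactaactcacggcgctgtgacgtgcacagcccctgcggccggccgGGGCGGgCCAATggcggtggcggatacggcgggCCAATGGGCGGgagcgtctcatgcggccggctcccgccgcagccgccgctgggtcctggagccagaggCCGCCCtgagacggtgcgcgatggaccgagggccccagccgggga
GPR158: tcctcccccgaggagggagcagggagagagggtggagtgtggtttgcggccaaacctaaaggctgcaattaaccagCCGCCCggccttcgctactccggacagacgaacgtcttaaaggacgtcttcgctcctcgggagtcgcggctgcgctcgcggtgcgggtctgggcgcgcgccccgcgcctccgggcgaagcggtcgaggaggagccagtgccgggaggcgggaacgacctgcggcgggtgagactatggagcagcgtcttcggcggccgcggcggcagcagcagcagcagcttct
SENP6: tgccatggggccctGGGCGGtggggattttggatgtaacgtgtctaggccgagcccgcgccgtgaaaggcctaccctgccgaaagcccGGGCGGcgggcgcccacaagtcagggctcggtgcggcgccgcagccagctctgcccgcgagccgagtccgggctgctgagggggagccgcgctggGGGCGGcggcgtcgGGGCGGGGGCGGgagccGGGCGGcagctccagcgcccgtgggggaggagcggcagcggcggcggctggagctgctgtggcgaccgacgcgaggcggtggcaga

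All 3 promoters are rich in G and C and in the dinucleotide CG. G and C make up 71.7% of the ANKRD11 promoter, 69.0% of the GPR158 promoter and 77.0% of the SENP6 promoter, against a median of 58.7% over the 35116 promoters of the table. CG occurs 34 times in ANKRD11, 37 times in GPR158 and 40 times in SENP6, against a median of 14. GGGCGG was found 3 times in ANKRD11, 1 time in GPR158 and 6 times in SENP6 on the 2 strands together, and 45.0% of all promoters hold it. CCAAT, a motif added after the letters were seen, was found 3 times in ANKRD11, where the match 63 bases before the start adjoins a GGGCGG match, and 0 times in GPR158 and SENP6. It is held by 34.6% of all promoters. TATAAA, the core of the TATA box, was found in none of the 3 windows and is held by 11.5% of all promoters. These matches are letters, not sites of binding.

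In DMSO cells, listed Pol I peaks lay on or just past the start of each gene, where no Pol II peak was listed. At ANKRD11 the Pol I peak chr16:89556852-89557509 was centred at -0.18 kb and had, with 212.49, the highest score of the 16 DMSO Pol I peaks of the window. Scores are those the authors gave each peak, never below 50, and they rank peaks within a list. A further DMSO Pol I peak of ANKRD11, chr16:89555459-89556089, followed 1.23 kb after the start with a score of 168.59. At GPR158 the DMSO Pol I peaks chr10:25463425-25463982, centred at 0.703 kb with a score of 132.33, and at 1.74 kb with a score of 64.0 lay next to the start. SENP6 had 1 DMSO Pol I peak in its whole window, chr6:76311221-76312584, centred at 0.902 kb, 1364 bp wide and with a score of 564.77. None of these start peaks was overlapped by a listed Pol II peak of either treatment. Outside the windows, DMSO Pol II peaks overlapped 13.96% of DMSO Pol I peaks, and BMH-21 Pol II peaks overlapped 2.43%. A lack of overlap was thus the common case, and nothing about these starts is read from it.

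The listed Pol II peak nearest to each start was in the gene body or upstream, and no start was covered by one. After BMH-21 it was centred at 8.498 kb in ANKRD11 (240 bp wide, score 50.91), at 9.83 kb in GPR158 (331 bp, score 51.54) and at 3.01 kb in SENP6 (214 bp, score 61.98). In DMSO cells the nearest Pol II peak of ANKRD11 was centred upstream at -9.72 kb (387 bp, score 57.03) and the next in the gene lay at 17.9 kb. The DMSO Pol II peaks nearest to the other starts were centred at 4.80 kb in GPR158 (550 bp, score 51.66) and at 12.5 kb in SENP6 (1146 bp, score 124.65). The starts thus lie in stretches with no listed Pol II peak in both treatments. In the initial 10 kb of the gene, listed peaks covered 2.40% after BMH-21 and 0% in DMSO cells for ANKRD11, 3.31% and 15.3% for GPR158, and 6.40% and 0% for SENP6.

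A missing listed peak does not show that Pol II was missing there. Every peak carries a running number in order of position, and both Pol II lists skip numbers in the stretches that span the starts. At ANKRD11 the BMH-21 Pol II list skipped 2 numbers between -12.2 and 8.38 kb, and the DMSO Pol II list skipped 2 between -9.53 and 17.3 kb. At GPR158 the BMH-21 list skipped 7 numbers in a long stretch that ends at 9.66 kb, and the DMSO list skipped 2 between -8.51 and 4.53 kb. At SENP6 the stretch ending at 2.90 kb skipped 4 BMH-21 numbers, and the stretch ending at 12.0 kb skipped 11 DMSO numbers over 1014 kb. The place of a skipped number within its stretch, and its width and score, are not given. Whether any of them lay on a start therefore could not be read from the lists.

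**Figure D1:**
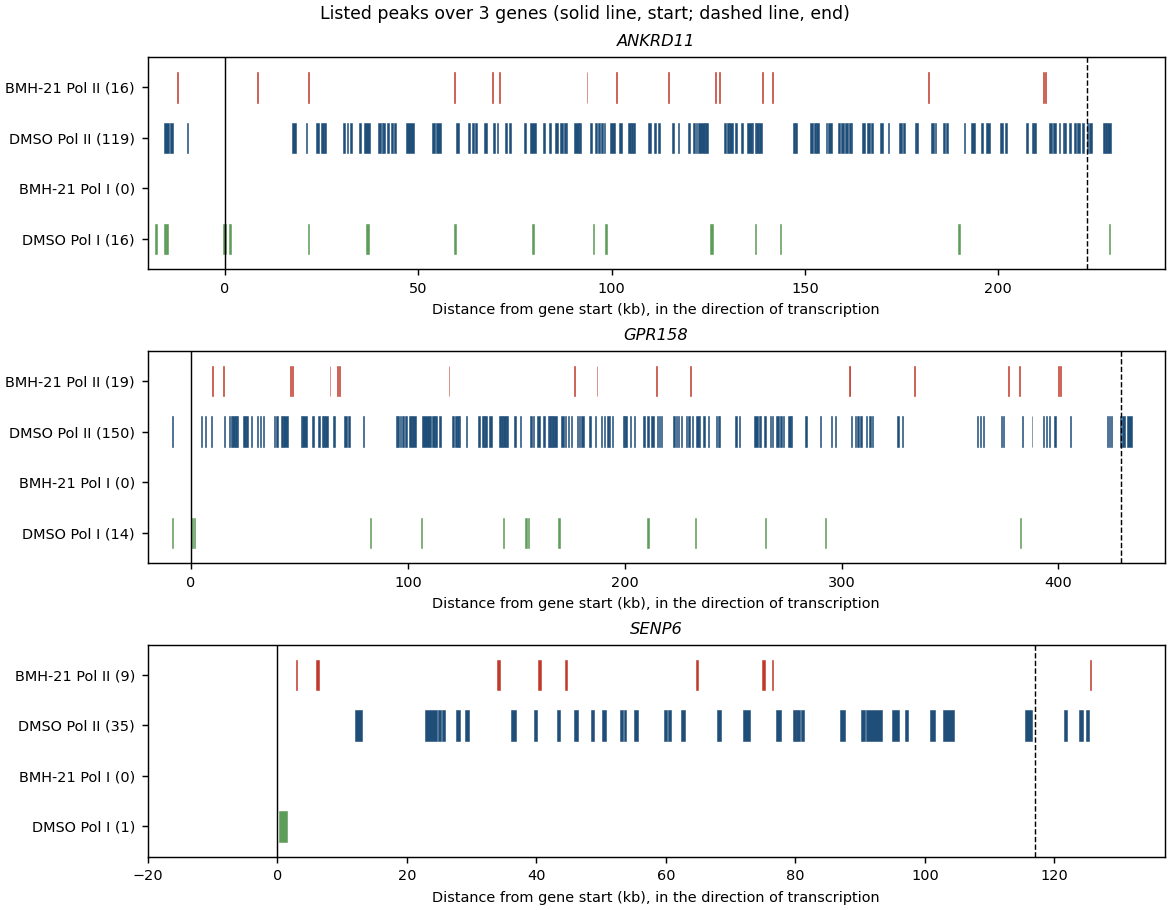
Listed peaks of the 4 libraries over ANKRD11, GPR158 and SENP6, with distance from the gene start in kb on the horizontal axis and 1 row per library (BMH-21 above DMSO for each antibody; the number of peaks stands in parentheses). DMSO Pol II peaks run through all 3 genes (119, 150 and 35 peaks), BMH-21 Pol II peaks are scattered (16, 19 and 9), BMH-21 Pol I has 0 peaks, and DMSO Pol I peaks stand at each start.

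ANKRD11 held the densest of the 3 sets of DMSO Pol II peaks. Listed Pol II peaks numbered 16 after BMH-21 and 119 in DMSO cells, and covered 4.04 kb (1.54%) and 75.8 kb (28.8%) of the 263 kb window. Listed Pol I peaks numbered 0 after BMH-21 and 16 in DMSO cells, where they covered 7.48 kb (2.84%). With the gene cut into 4 equal parts from the start, Pol II peaks covered 1.03%, 2.09%, 2.24% and 1.44% of them after BMH-21. In DMSO cells they covered 25.8%, 35.0%, 36.2% and 29.7% of the same parts. Pol II peak centres were a median of 12.2 kb apart after BMH-21 and 1.28 kb apart in DMSO cells (quartiles 0.824 and 2.41 kb). The DMSO Pol II run covered the gene from 17.3 kb to its end and stopped just past it, at 229 kb.

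The highest DMSO Pol II score of the ANKRD11 window was outside the gene. It belonged to chr16:89571429-89572775, centred at -15.1 kb and thus upstream, towards SPG7, the next protein-coding gene on that side in the GRCh38 gene table, with a score of 475.05. Within the gene, the leading DMSO Pol II peaks were chr16:89476664-89478181 at 79.6 kb (score 399.19) and chr16:89508011-89510274 at 47.9 kb (score 389.34), the widest of the window at 2264 bp. The last DMSO Pol II peak, chr16:89327953-89328840, lay at 228.6 kb with a score of 179.91. The highest BMH-21 Pol II score of ANKRD11 was 76.83, at chr16:89344668-89344973, 212 kb from the start and the last peak of the window. It was followed by 69.79 at 127 kb and 66.93 at 182 kb. The widest BMH-21 Pol II peak, at 21.6 kb, spanned 333 bp. No BMH-21 Pol II score here reached 100, and outside the windows 86.5% of BMH-21 Pol II peaks were below 100. Of the 119 DMSO Pol II peaks, 52 (43.7%) reached 100, and outside the windows 64.7% of DMSO Pol II peaks were below it. Scores rank peaks within a list, so nothing is read from a difference in score between the lists.

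GPR158, the longest of the 3 genes at 429 kb, had the most DMSO Pol II peaks and an uneven cover. Listed Pol II peaks numbered 19 after BMH-21 and 150 in DMSO cells, and covered 6.21 kb (1.32%) and 117 kb (25.0%) of the 469 kb window. Listed Pol I peaks numbered 0 after BMH-21 and 14 in DMSO cells, where they covered 7.28 kb (1.55%). After BMH-21, the 4 equal parts of the gene from its start held 7, 3, 4 and 5 Pol II peaks, which covered 2.21%, 1.02%, 0.866% and 1.70%. In DMSO cells they held 37, 51, 41 and 18, which covered 31.6%, 38.6%, 26.3% and 9.20%. The last part, which had the least DMSO cover of the 4, thus did not have the least BMH-21 cover. Pol II peak centres were a median of 16.6 kb apart after BMH-21 and 1.86 kb apart in DMSO cells.

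Wide peaks made up a sizeable part of the DMSO Pol II cover over GPR158, as over SENP6. The widest, chr10:25569446-25573446, spanned 4001 bp at 108 kb with a score of 540.54, and the 10 kb step around it, from 100 to 110 kb, was covered to 68.0%. The highest score of the window, 589.96, belonged to chr10:25894575-25897150, which was 2576 bp wide and centred at 433 kb, past the end of the gene at 429 kb. Another leading peak was chr10:25505486-25507868 at 43.7 kb (score 395.46). Peaks of 1000 bp or more made up 29 of the 150 and held 37.2% of their summed width, beside 40.6% in SENP6 and 23.6% in ANKRD11. After BMH-21 the leading Pol II peak was chr10:25531039-25531629 at 68.3 kb (591 bp, score 116.07), followed by chr10:25796309-25796799 at 334 kb (score 83.39) and chr10:25863054-25863519 at 400.3 kb (score 82.55). The last BMH-21 Pol II peak lay at 401 kb, so none was listed at the end of the gene.

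SENP6, the shortest gene at 117 kb, had the lowest DMSO Pol II cover of the 3 and the highest after BMH-21. Listed Pol II peaks numbered 9 after BMH-21 and 35 in DMSO cells, and covered 2.94 kb (1.87%) and 26.4 kb (16.8%) of the 157 kb window. Listed Pol I peaks numbered 0 after BMH-21 and 1 in DMSO cells, the start peak described above, which covered 0.869% of the window. After BMH-21 Pol II peaks covered 2.19%, 4.06%, 2.84% and 0% of the 4 equal parts of the gene. In DMSO cells they covered 16.7%, 17.4%, 21.9% and 28.9%, more in each part than in the part before it. This order of cover was seen in neither of the other genes. The number of DMSO Pol II peaks did not rise in this way, with 5, 10, 10 and 7 in the parts. Pol II peak centres were a median of 8.28 kb apart after BMH-21 and 2.54 kb apart in DMSO cells, the widest DMSO spacing of the 3 genes. No Pol II peak was listed in the 20 kb upstream of SENP6 in either treatment.

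Of the 3 highest-scored DMSO Pol II peaks of SENP6, 2 lay towards its end. They were chr6:76401877-76404436 at 92.2 kb (2560 bp, the widest, score 483.35), chr6:76413724-76415520 at 103.6 kb (1797 bp, score 308.74) and chr6:76333743-76335605 at 23.7 kb (1863 bp, score 220.87). The last DMSO Pol II peak was at 125 kb, past the end of the gene, where 3 DMSO peaks and 1 BMH-21 Pol II peak were listed. BMH-21 Pol II scores were highest at chr6:76344954-76345390, 34.2 kb from the start (score 104.49), and at chr6:76317048-76317473, 6.26 kb from the start (score 101.58). The third, at 125.6 kb, had a score of 80.44, and the widest spanned 494 bp at 40.4 kb. Outside the window, BMH-21 Pol II peaks began again 7.84 kb past its downstream edge, towards MYO6, the next protein-coding gene in the GRCh38 gene table. With 50 kb in place of 20 kb on both sides, SENP6 had 25 BMH-21 Pol II peaks covering 7.46%. Its DMSO Pol II count stayed at 35, covering 12.15%.

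**Figure D2:**
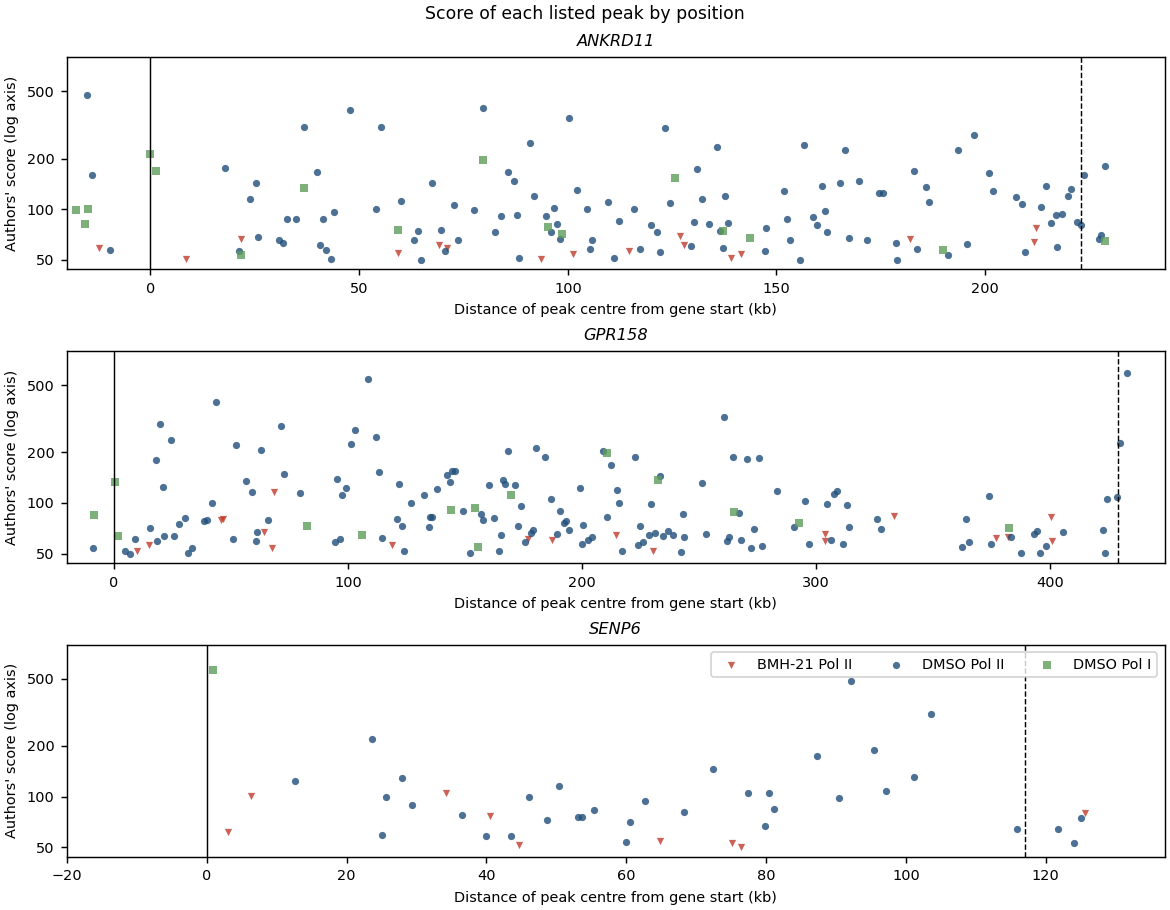
Authors' score of each listed peak (log axis) against the distance of its centre from the gene start in kb, for BMH-21 Pol II (triangles), DMSO Pol II (circles) and DMSO Pol I (squares). BMH-21 Pol II peaks lie at or below 116.07 in all 3 genes. DMSO Pol II peaks reach 475.05 in the ANKRD11 window, 589.96 at GPR158 and 483.35 at SENP6. The DMSO Pol I peak at the start of SENP6 stands at 564.77. Scores rank peaks within a list and are not compared between lists.

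Listed Pol II cover was lower after BMH-21 over all 3 genes. They were picked for dense DMSO Pol II peaks, a choice that by itself lowers the ratio of BMH-21 to DMSO. The ratio of covered length, BMH-21 over DMSO, was 0.0532 for ANKRD11, 0.0530 for GPR158 and 0.111 for SENP6, against 0.299 over the rest of the genome. For the number of listed peaks it was 0.134, 0.127 and 0.257, against 0.403 elsewhere. The SENP6 ratios depend on the flank: with 50 kb on both sides, BMH-21 cover was 7.46% and DMSO cover 12.15%. These ratios describe listed peaks only: no listed Pol II peak of one treatment overlaps one of the other and numbers are skipped in both lists, so positions common to both treatments may have been left out before deposit, which was not tested. In bins of 50 kb with a listed Pol II peak in either list, cover was 2-fold or more lower after BMH-21 in 15 of the 15 bins that lie wholly in the windows, beside 76.2% of all 15849 bins tested. For Pol I it was so in 13 of 13 bins, beside 96.9% of 26278 bins. Because the windows were picked for their DMSO peaks, nothing is read from these ratios and member counts. In bins of 20 kb, 37 of 40 were 2-fold or more lower for Pol II, beside 74.8% of all bins, and 2 of 40, 1 each in ANKRD11 and SENP6, were 2-fold or more higher, beside 19.8%.

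Step by step along the genes, the profile of DMSO Pol II cover was broken by few gaps. In 10 kb steps, listed peaks covered part of 13 of the 23 steps of ANKRD11 after BMH-21 and 22 in DMSO cells. In GPR158 they covered part of 14 of 43 steps after BMH-21 and 38 in DMSO cells, and in SENP6 5 of 12 after BMH-21 and 11 in DMSO cells. The median step of the gene was covered to 2.12% after BMH-21 and 35.5% in DMSO cells for ANKRD11, 0% and 29.6% for GPR158, and 0% and 19.2% for SENP6. BMH-21 cover was above DMSO cover in 1 step of ANKRD11 and 1 of SENP6, the initial step in each, and in 2 steps of GPR158. The highest step after BMH-21 reached 11.7%, in GPR158 from 60 to 70 kb.

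**Figure D3:**
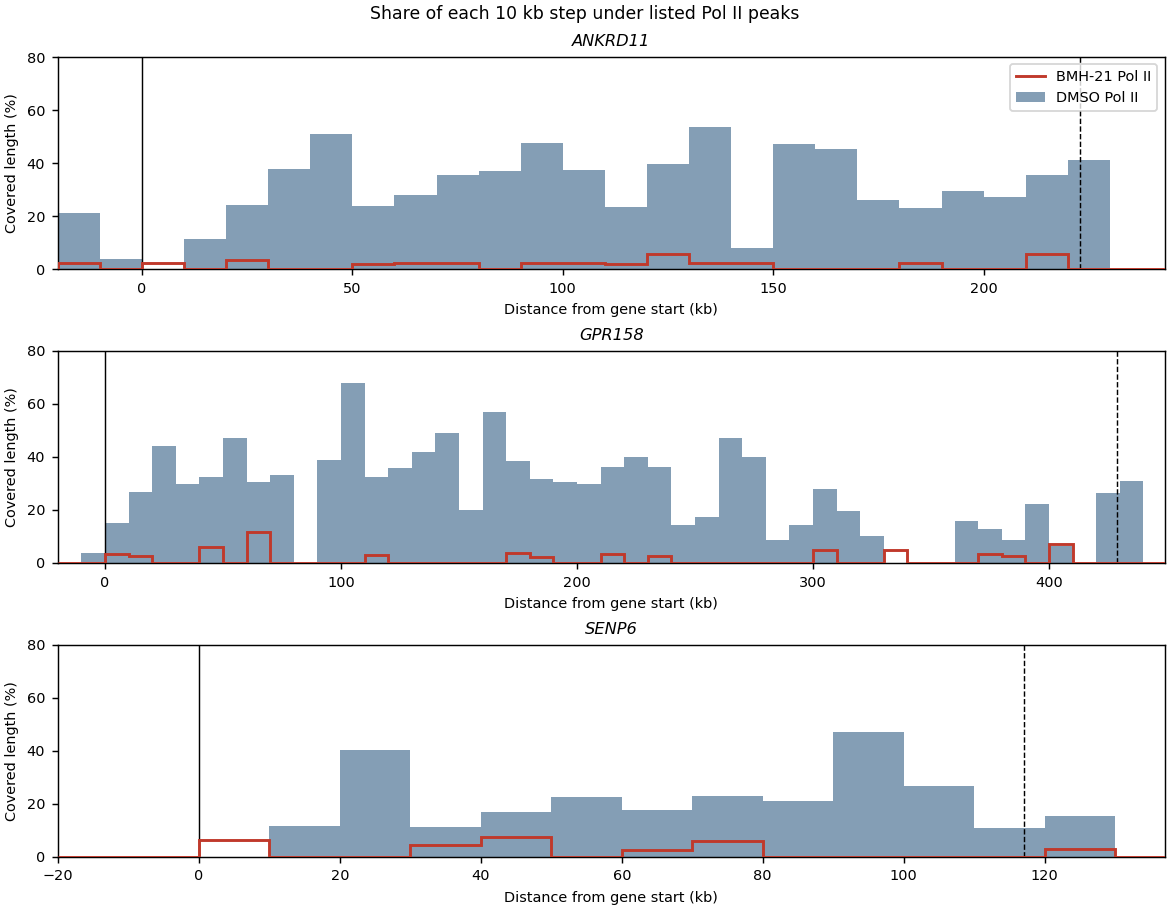
Share of each 10 kb step covered by listed Pol II peaks (percent) against distance from the gene start in kb, BMH-21 as a red line and DMSO as blue bars. DMSO cover runs through each gene with maxima of 53.6% (ANKRD11), 68.0% (GPR158) and 47.0% (SENP6), and BMH-21 cover stays at or below 11.7%, above DMSO in the initial 10 kb of ANKRD11 and SENP6.

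Running numbers narrow the difference between the treatments at these genes. Between the first and last listed Pol II peak of the ANKRD11 window, numbering spanned 62 numbers after BMH-21, of which 46 were skipped, and 159 in DMSO cells, of which 40 were skipped. In GPR158 it spanned 61 numbers after BMH-21, 42 of them skipped, and 191 in DMSO cells, 41 of them skipped. In SENP6 it spanned 23 after BMH-21, 14 of them skipped, and 46 in DMSO cells, 11 of them skipped. Skipped numbers were thus close in count between the treatments within each gene, although the listed peaks differed several-fold. As a share of the numbers given inside the windows, 69.9% were skipped after BMH-21 and 23.2% in DMSO cells. Over the whole Pol II lists the shares were 77.0% and 48.1%. The windows were picked for dense listed DMSO peaks, which by itself lowers the DMSO share. Nothing about the genes is therefore read from the closeness of the counts. By numbers given, BMH-21 stood at 0.390 of DMSO in ANKRD11, 0.319 in GPR158 and 0.500 in SENP6, against 0.906 for the highest numbers of the whole Pol II lists. The choice of windows for dense DMSO peaks lowers these ratios as well, so nothing is read from their distance to 0.906. If the skipped numbers are also counted out to the listed peaks that bracket each window, which lie up to 1116 kb beyond its edge, they came to 64 after BMH-21 and 44 in DMSO cells for ANKRD11, 53 and 45 for GPR158, and 19 and 26 for SENP6.

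Skipped numbers lay in a larger share of the BMH-21 than of the DMSO stretches, a stretch being the space from a listed Pol II peak to the next in the same window. After BMH-21 a number was skipped in 73.3% of the stretches of ANKRD11, 61.1% of GPR158 and 62.5% of SENP6, and in DMSO cells in 25.4%, 20.1% and 29.4%. The BMH-21 stretches were longer, with peak centres a median of 12.2, 16.6 and 8.28 kb apart, against 1.28, 1.86 and 2.54 kb. The whole BMH-21 list also skipped more of its numbers, 77.0% against 48.1%. Nothing about the genes is therefore read from these shares. Stretches that reach beyond a window were left out. Among the rest, the stretches of each treatment with the most skipped numbers were both in GPR158. They were chosen after their values were seen. The BMH-21 stretch ran from 68.6 to 119 kb and skipped 14 numbers, and the DMSO stretch ran from 79.9 to 94.3 kb and skipped 6. The longest DMSO break inside GPR158, from 328 to 362 kb, skipped 1 number, and 1 BMH-21 Pol II peak, at 334 kb, was listed within it. Of the 11540 BMH-21 Pol II peaks, 0 overlapped a DMSO Pol II peak, in these windows or elsewhere, so the listed peaks cannot show positions common to both treatments. Within the windows, a DMSO Pol II peak lay at most 1 kb from 25 of the 44 BMH-21 Pol II peaks. The median distance of the 44 to the nearest was 0.798 kb. Outside the windows, 19.1% of 11496 BMH-21 Pol II peaks lay as close to a DMSO Pol II peak. The windows were picked for dense DMSO Pol II peaks, so nothing is read from this closeness.

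**Figure D4:**
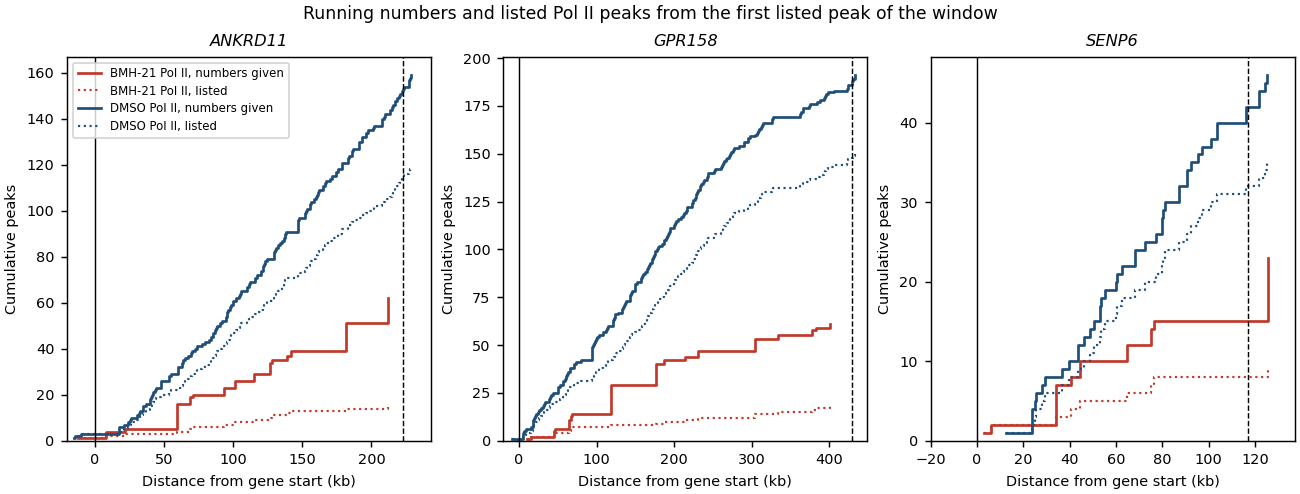
Cumulative Pol II peaks along each gene from the first listed peak of the window, by running numbers given (solid) and by listed peaks (dotted), for BMH-21 (red) and DMSO (blue), against distance from the gene start in kb. Skipped numbers are added at the end of their stretch, since their place within it is not given. Numbers given reach 62, 61 and 23 after BMH-21 and 159, 191 and 46 in DMSO cells, while listed peaks reach 16, 19 and 9 and 119, 150 and 35.

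Within the DMSO list, Pol II peaks of the 3 windows were wider than over the rest of the genome, though not than in all other dense runs, which are defined further on. Their median width was 580 bp (quartiles 460 and 843 bp), against 497 bp for DMSO Pol II peaks outside the windows, and 16.1% were 1000 bp or wider, against 7.62%. By median peak width the largest run of ANKRD11 (543 bp) ranked 117, that of GPR158 (599 bp) 74 and that of SENP6 (574 bp) 92 of 260 dense runs, against a median of 528 bp over the 255 runs elsewhere. The median score of the DMSO Pol II peaks was 85.2 in the windows, against 81.0 outside. For BMH-21 Pol II the median width was 274 bp in the windows, against 269 bp outside, and 0 peaks reached 1000 bp, against 4.81% outside. Of these BMH-21 Pol II peaks 93.2% had a score below 100, against 86.5% outside. Density was 49.5 BMH-21 and 342 DMSO Pol II peaks per Mb in the windows, against 3.82 and 9.47 outside. These densities were not tested, since the genes were chosen with the lists known.

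DMSO Pol I peaks of the windows coincided with DMSO Pol II peaks at some places. Of the 31 DMSO Pol I peaks, 11 (35.5%, exact Clopper-Pearson 95% interval 19.2 to 54.6) were overlapped by a DMSO Pol II peak by 1 bp or more, against 13.96% outside the windows, and intervals cover counting error over peaks only. DMSO Pol II peaks covered 24.7% of the windows and 0.552% of the genome outside, and the part of this cover in the overlap was not tested. The windows were picked for these dense DMSO Pol II peaks, so nothing is read from the distance of 35.5% to 13.96%. By gene window the count of overlapped DMSO Pol I peaks was 7 of 16 in ANKRD11, 4 of 14 in GPR158 and 0 of 1 in SENP6. Between the gene bounds it was 7 of 25, and in the flanks 4 of 6. In reverse, a DMSO Pol I peak touched 11 of the 304 DMSO Pol II peaks (3.62%, interval 1.82 to 6.38), against 20.7% outside. The windows were picked for the density of these 304 peaks, and the interval treats neighbouring peaks as independent. Nothing is therefore read from the distance of this share to 20.7%. Density of DMSO Pol I peaks was 34.9 per Mb in the windows together, against 14.1 per Mb outside. The genes differed: 16 peaks were listed over 263 kb at ANKRD11, 14 over 469 kb at GPR158 and 1 over 157 kb at SENP6. Density at SENP6 was thus below that outside. The outside value was not limited to genes, and the difference was not tested.

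The DMSO Pol I peaks with the highest scores in the gene bodies differed in whether a DMSO Pol II peak overlapped them. In ANKRD11 the Pol I peak chr16:89477094-89477642 at 79.6 kb (score 196.98) lay under the gene's highest-scored DMSO Pol II peak within its bounds. In GPR158 the highest-scored DMSO Pol I peak, chr10:25673492-25674020 at 211 kb (score 198.03), was also overlapped by a DMSO Pol II peak, whose score of 82.34 ranked 69 of 150 in the window. The next by score in GPR158, chr10:25695268-25696029 at 233 kb (score 137.31), and the widest, chr10:25632150-25632935 at 169.5 kb (786 bp, score 112.15), were not. In ANKRD11 the widest DMSO Pol I peak, chr16:89430895-89431662 at 126 kb (768 bp, score 152.36), was not overlapped by a Pol II peak either. Upstream, the first DMSO Pol I peak of the ANKRD11 window was centred at -17.9 kb (score 99.02), and that of GPR158, chr10:25454081-25454649, was centred at -8.64 kb and overlapped a DMSO Pol II peak there (score 54.31). The last DMSO Pol I peaks were at 229 kb in ANKRD11 (score 64.47) and at 383 kb in GPR158 (score 71.38).

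Across treatments, 2 of the 44 BMH-21 Pol II peaks lay on a DMSO Pol I peak, against 9.03% of BMH-21 Pol II peaks outside the windows. Both were in ANKRD11, at 21.6 kb and at 59.4 kb, where the BMH-21 Pol II scores were 66.56 and 55.19 and the DMSO Pol I scores 53.13 and 75.24. Neither place had a listed DMSO Pol II peak on it. No BMH-21 Pol II peak of the whole list is overlapped by one, so nothing is read from this. GPR158 and SENP6 had 0 BMH-21 Pol II peaks on a DMSO Pol I peak, of 19 and 9.

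Among all dense runs of DMSO Pol II peaks, the 3 genes stood at different ranks. Runs were defined as at least 10 peaks separated by gaps of at most 10 kb, and the list had 260. ANKRD11 held the run with the most peaks, 116 over 212 kb, which was 34.6% covered. With gaps of up to 20 kb this run ranked 6 of 359, and the largest of GPR158, then with 132 peaks, ranked 2. GPR158 held 3 runs, of 30, 99 and 12 peaks, and the largest of them ranked 4 in number of peaks and 4 in length (220.2 kb) and was 35.2% covered. The run of SENP6 had 31 peaks over 92.5 kb, was 25.6% covered and ranked 34 by number of peaks. The other 255 runs had a median of 14 peaks, a length of 38.2 kb and a cover of 24.3%. Of the 54 runs of the BMH-21 Pol II list, the 11 of the DMSO Pol I list and the 10 of the BMH-21 Pol I list, 0 touched a window of these genes.

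**Figure D5:**
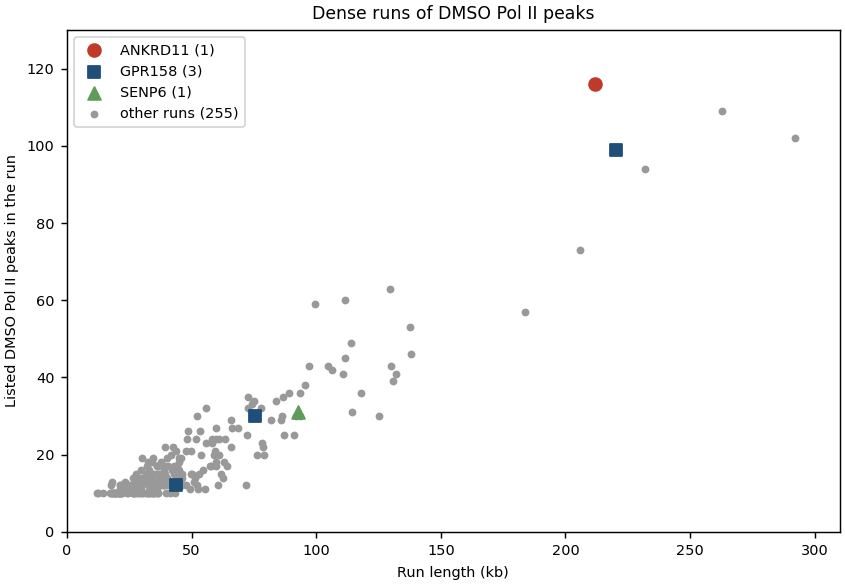
Number of listed peaks against length in kb for the 260 dense runs of DMSO Pol II peaks, with the runs of ANKRD11 (circle), GPR158 (squares) and SENP6 (triangle) marked. The ANKRD11 run has the most peaks, 116, the largest GPR158 run has 99, and the SENP6 run has 31, among 255 other runs with a median of 14.

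Beyond the edges of the windows, the next listed DMSO Pol II peaks lay from 30.5 to 1111 kb away. The outermost peaks inside were 4.23 kb (score 475.05) and 13.95 kb (score 179.91) from the edges of the ANKRD11 window, and the nearest outside were 47.0 kb (score 72.54) and 30.5 kb (score 101.34) beyond them. For GPR158 the nearest outside lay 429.3 kb upstream (score 90.22) and 1111 kb downstream (score 109.3). For SENP6 they lay 982 kb upstream (score 315.94) and 162 kb downstream (score 81.41). The stretches that lead to these outside peaks skipped numbers as well. Upstream and downstream, they skipped 1 and 3 at ANKRD11, 2 and 2 at GPR158, and 11 and 4 at SENP6.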

How the data were processed

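The files were 4 lists of peaks on hg19, 1 per ChIP library. The 2 inputs were not used here. The submitters' processing notes name deepTools 3.5.4, Bowtie2 2.2.1 and CASAVA 1.8.2. Peak names begin with MACS, a peak caller. Its settings, and whether inputs entered the calls, are not stated by these sources. The authors' deposited score per peak is named a p-value in the file headers, but its values, from 50 upward, are on a transformed scale that is not stated, so it was used only within a list.

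Starts were taken as zero-based and printed as a browser shows them. Peaks, covered length, distance from the gene start, overlaps and skipped running numbers were computed with SciPy 1.17.1, pandas 2.3.3 and NumPy 2.4.6 under Python 3.11.15, and figures drawn with matplotlib 3.10.9. The genome outside the windows was taken from the first to the last listed peak of each chromosome. The counting steps were tested on simulated data. With 1 library per group no test between treatments was made. Depth and enrichment of a library can change the number of peaks called, and the lists allow no correction for them. The genes, windows and gene bounds, and the definition of runs, were chosen with earlier results of these data known. Named peaks are, per gene and list, the 3 with the highest score, the widest, the nearest to the start, the first and the last. The gene and promoter tables are on GRCh38, so genes related by family were not counted and no exon or intron is named. Alternatives changed the flank, the score and width minimum, the bin, the overlap and the gap within runs.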

Additional observations from a re-analysis of the deposited data

How the results depend on the processing

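The 23 results were recomputed under 75 alternatives, and 52 of the values were within 1.5 times the value reported while 23 were not. Keeping scores at or above the median of each list left 7 BMH-21 and 73 DMSO Pol II peaks at ANKRD11, 11 and 72 at GPR158, and 5 and 21 at SENP6. At that minimum BMH-21 Pol II peaks covered 0.740% of the ANKRD11 window, 0.858% of GPR158 and 1.18% of SENP6, and DMSO Pol II peaks covered 16.3% of GPR158. A minimum width of 300 bp left 3, 9 and 4 BMH-21 Pol II peaks at ANKRD11, GPR158 and SENP6, covering 0.364%, 0.765% and 1.07%. These values are lower by construction, since fewer peaks are counted. With 50 kb on both sides SENP6 had 25 BMH-21 Pol II peaks covering 7.46%, beside 12.15% for DMSO Pol II. For skipped numbers, the value compared with was the count out to the bracketing peaks. At SENP6 it was 26 for DMSO Pol II, against 11 between the first and last listed peak inside. DMSO Pol I peaks with a DMSO Pol II peak within 1000 bp numbered 21 of 31 (67.7%), against 18.1% outside the windows. The windows were picked for dense DMSO Pol II peaks, and the part of that cover in this share was not tested. Nothing is therefore read from its distance to 18.1%. With gaps of at most 5 kb the largest runs held 68 peaks in ANKRD11, 64 in GPR158 and 18 in SENP6. With gaps of at most 20 kb they held 116, 132 and 35, and the ANKRD11 run ranked 6 of 359 in place of 1 of 260, below the GPR158 run at rank 2. BMH-21 cover stayed below DMSO cover in all 3 genes under each alternative run. At SENP6 the 2 were much closer with 50 kb on both sides, at 7.46% and 12.15%. No paired analysis was possible because each group has 1 library. Read depth is unknown, so no limit by depth could be set.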

Other observations

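The 20 kb past the end of each gene still held listed DMSO Pol II peaks. After BMH-21, Pol II peaks past the end numbered 0 for ANKRD11, 0 for GPR158 and 1 for SENP6, and covered 0%, 0% and 1.38% of those 20 kb. In DMSO cells they numbered 5, 2 and 3 and covered 13.4%, 17.5% and 7.70%. At GPR158 this was more than the 9.20% of the last of 4 equal parts of the gene, and most of it was the 2576 bp peak with the highest score of the window.

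The 20 kb before the starts differed between the genes. BMH-21 Pol II peaks covered 1.25% of them at ANKRD11 and 0% at GPR158 and SENP6, and DMSO Pol II peaks covered 12.6%, 1.88% and 0%. DMSO Pol I peaks covered 9.02% before ANKRD11, where 4 were listed, 2.85% before GPR158 and 0% before SENP6. No hg19 annotation was used to assign these flanks to other genes.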
